A study of Mus musculus with 7 samples.

Results

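Neuregulin-ErbB and Notch signalling were followed in the left ventricle of mouse embryos through 10 genes chosen by name: the ligand gene Nrg1, the receptor genes Erbb2, Erbb3 and Erbb4, the Notch receptor genes Notch1 and Notch2, the Notch ligand genes Dll4 and Jag1, and the Notch target genes Hey1 and Heyl. All 10 were among the 23337 gene symbols of the count table, and all 10 passed the filter on low counts that left 14691 genes for testing. Poly(A) RNA was sequenced from left ventricles taken at embryonic day 12.5, 1 day after the mothers had been given tamoxifen. The 5 controls carried Gt(ROSA)26Sortm1(cre/ERT2)Tyj with Tbx5+/+, and the 2 libraries labelled mutant carried the same allele with Tbx5flox/flox. Both groups therefore held the tamoxifen-activated recombinase CreERT2 and both were exposed to tamoxifen. The Rosa26 locus is active in most cell types, so the recombinase was not restricted to heart muscle. The cells in which recombination took place were not measured. TBX5 is a cardiac T-box factor, and the comparison asks which ventricular transcripts differ after its deletion. The labels name no litter, so p-values measure only the spread between these samples.

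Trabeculae are the muscular ridges that grow from the inner wall of the embryonic ventricle. The endocardium, the endothelial lining of the heart, releases neuregulin-1, which acts on ErbB4 and ErbB2 receptor pairs of the underlying heart muscle cells. ErbB2 binds no neuregulin itself and signals as the partner of another ErbB receptor, while ErbB3 binds neuregulin and has little kinase activity of its own. Notch receptors of the endocardium are activated by Delta and Jagged ligands of neighbouring cells. They are cut by gamma-secretase, and the freed intracellular part joins the DNA-binding protein RBPJ to switch on target genes such as those of the Hey family. Loss of Nrg1, Erbb2, Erbb4 or Notch1 in mice is known to impair trabeculation.

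The libraries held 20268208 to 24440806 counts. Tbx5 itself was at 64.2 to 98.3 CPM in the controls and at 93.9 and 114 CPM in the libraries labelled mutant. CPM values are counts scaled by library size. Reads from exons beyond the floxed segment still count towards Tbx5, so these values do not test the deletion and the genotypes are taken from the labels. Xist, which coats the silenced X in female cells, was at 0.689 and 1.09 CPM in control replicates 1 and 3 and at 311 to 509 CPM in the 5 other libraries. Heart muscle markers of the labelled tissue were abundant, with a sum over 20 genes of 52100 to 58100 CPM in the controls, against 58900 and 63300 CPM in the libraries labelled mutant. The 28 endocardial and endothelial markers summed to 1430 to 2060 CPM in the controls and to 1380 and 1890 CPM in mutant replicates 1 and 2. None of the listed markers of either cell type was at 0 in every library.

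By the edgeR quasi-likelihood test none of the 10 genes had an adjusted p under 0.05, while 1.36% of all genes tested did, 0.463% higher and 0.899% lower. Hey1, Jag1, Erbb4 and Nrg1 had an unadjusted p under 0.05, which makes 4 of 10, beside 17.6% of all genes. Hey1 and Jag1 of these 4 had lower means in the libraries labelled mutant, and Erbb4 and Nrg1 had higher means. Hey1 was the 1 gene of the 10 whose groups did not overlap, beside 20.2% of all genes, 9.73% with the libraries labelled mutant higher and 10.4% with them lower. By DESeq2, limma-voom and the edgeR likelihood ratio test 0 of the 10 also passed, with 3, 4 and 4 at an unadjusted p under 0.05. The deposited table of the authors' own comparison lists 668 genes, and 0 of the 10 are among them.

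**Figure D1:**
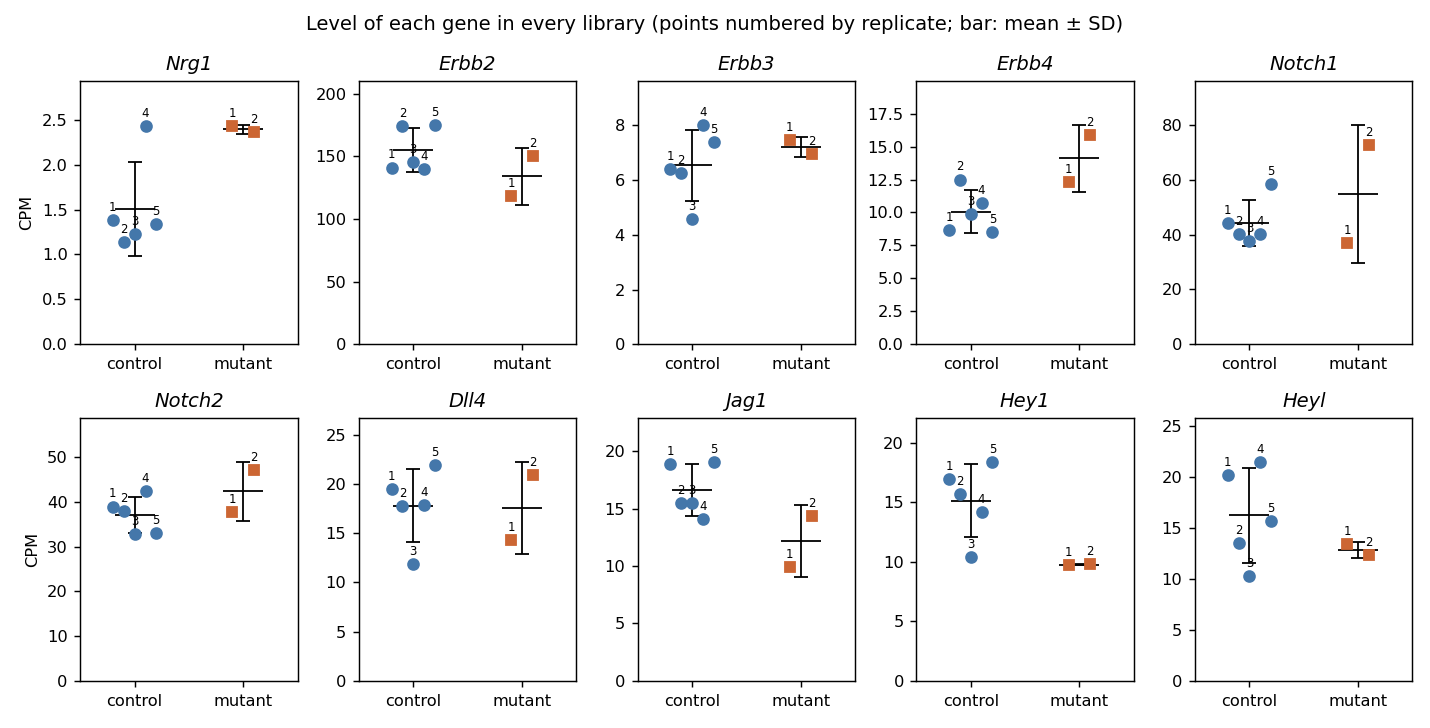
Level of each of the 10 genes in CPM (vertical axes, each starting at 0) in the 5 control libraries (circles) and the 2 libraries labelled mutant (squares), numbered by replicate, with the mean and SD of each group as bars. Hey1 is the gene whose 2 squares both lie below every circle, at 9.71 and 9.8 CPM, and the 2 squares of Notch1 lie on either side of the circles.

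Levels can be compared between genes only per length, so CPM was divided by the kilobases of exon of each gene. Erbb2 stood far above the rest, at 29.8 ± 3.46 CPM per kb (SD, n = 5) in the controls, 6.44 times the next gene, Dll4. Below it came Dll4, Hey1, Notch2, Heyl, Notch1 and Jag1, with control means between 4.63 and 2.85 CPM per kb. Each neighbouring pair in that run had overlapping control ranges. Hey1 was nevertheless above Notch2 in 5 of 5 controls, by a ratio of means of 1.35, while each of the other neighbours kept its place in only 2 or 3 of 5 controls. Jag1 was 2.63 times the next gene, Erbb3, without overlap of the control ranges. Erbb3 at 1.09 ± 0.217 and Erbb4 at 0.814 ± 0.133 CPM per kb overlapped in range. Nrg1 was the lowest of the 10, at 0.145 ± 0.0507 CPM per kb, and Erbb4 was 5.61 times as high.

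By the mean of the libraries labelled mutant, Erbb2 was again at the top, Dll4 next, and Jag1, Erbb3, Erbb4 and Nrg1 at the bottom. In mutant replicate 2 alone Jag1, at 2.48 CPM per kb, was just above Heyl, at 2.4. The gene length used matters most where many transcripts are annotated. With the longest transcript in place of all exons, Nrg1 came to 0.277, Notch1 to 4.66 and Hey1 to 6.23 CPM per kb in the controls. Nrg1 remained the lowest of the 10, Notch1 moved from place 6 to 4, and Hey1 moved above Dll4. On that length Notch1, at 5.78 CPM per kb, was above Dll4, at 4.7, in the mean of the libraries labelled mutant.

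**Figure D2:**
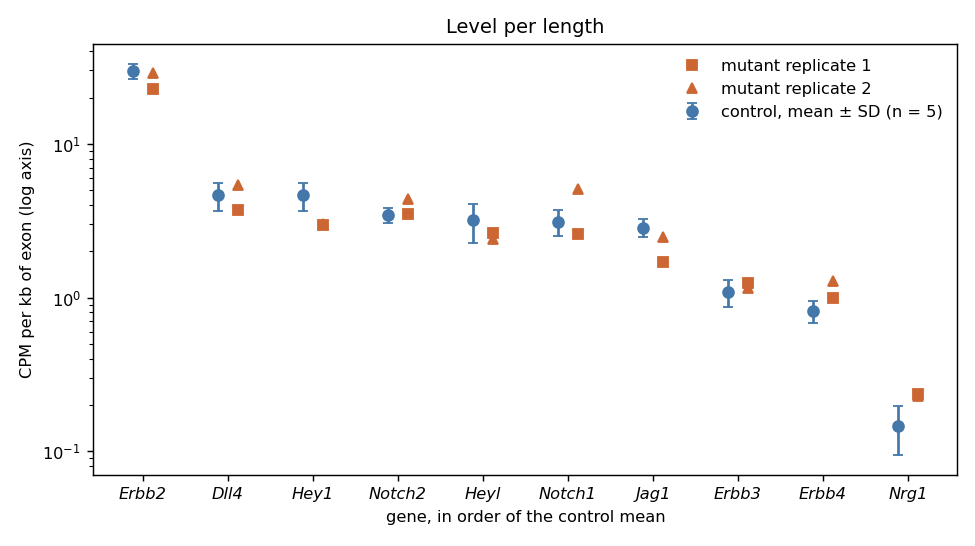
Level per kilobase of exon (log axis) of the 10 genes in order of the control mean, with the control mean and SD as circles and bars and the 2 libraries labelled mutant as a square and a triangle. Erbb2 at 29.8 and Nrg1 at 0.145 CPM per kb are the extremes of the controls, and the 6 genes from Dll4 to Jag1 lie close together.

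Nrg1, on chromosome 8 at 31814551 to 32884029 of GRCm38, encodes the neuregulin-1 ligands. Control replicates 1 to 5 had 32, 24, 27, 49 and 33 counts and mutant replicates 1 and 2 had 49 and 54. Scaled to CPM this was 1.38, 1.14, 1.23, 2.43 and 1.34 in the controls, against 2.43 and 2.36 in the libraries labelled mutant. Control replicate 4 stood with the libraries labelled mutant, and the 4 other controls lay below both. The log2 fold change, mutant over control, was 0.68 (SE 0.30, 95% interval 0.0028 to 1.35), with an adjusted p of 0.282 (edgeR quasi-likelihood). Counts this low carry a wide counting error: 49 counts have an exact Poisson 95% interval of 36.3 to 64.8, and 32 counts one of 21.9 to 45.2. Without control replicate 4 the log2 fold change was 0.92 and the adjusted p 0.0903.

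Erbb2, on chromosome 11 at 98412470 to 98437716, encodes the co-receptor. It was at 141, 174, 145, 140 and 175 CPM in control replicates 1 to 5 and at 118 and 150 CPM in mutant replicates 1 and 2. Mutant replicate 1 lay below every control and mutant replicate 2 inside their range. Erbb2 differed by a log2 fold change of -0.21 (SE 0.13, 95% interval -0.49 to 0.08), with an adjusted p of 0.43 (edgeR quasi-likelihood). That interval spans a fold between 0.71 and 1.05. The size rests on mutant replicate 1: without it the log2 fold change was -0.05, and without mutant replicate 2 it was -0.38.

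Erbb4, on chromosome 1 at 68032186 to 69108059, encodes the neuregulin-binding receptor of heart muscle. Its levels were 8.65, 12.5, 9.86, 10.7 and 8.55 CPM in the controls and 12.3 and 15.9 CPM in mutant replicates 1 and 2. Mutant replicate 2 was above every control, while mutant replicate 1 was just under control replicate 2. For Erbb4 the log2 fold change came to 0.49 (SE 0.17, 95% interval 0.12 to 0.87), with an adjusted p of 0.174 (edgeR quasi-likelihood). Leaving out mutant replicate 1 gave 0.67 and leaving out mutant replicate 2 gave 0.31, with adjusted p of 0.113 and 0.761 by the same edgeR test.

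Erbb3, on chromosome 10 at 128567523 to 128589652, is best known from neural crest, glia and cushion mesenchyme. It was at 6.41, 6.27, 4.59, 8.02 and 7.41 CPM in the controls and at 7.48 and 6.96 CPM in the libraries labelled mutant. Both lay inside the control range, and the log2 fold change was 0.14 (SE 0.20, 95% interval -0.31 to 0.59). Of 14 markers of cushion mesenchyme and fibroblasts, 8 were called lower, beside 0.899% of all genes. The 14 summed to 2700 to 4580 CPM in the controls and to 1620 CPM in each library labelled mutant. The list of 15 neural crest, glia and nerve genes, which includes Erbb3, summed to 20.5 to 29.7 CPM in the controls and to 24.7 and 23 CPM in the libraries labelled mutant. Erbb3 is a large part of that sum, so the sum is no separate measure of these cells. The 10 other tested genes of the list had a median log2 fold change of -0.31. The part of these cell types in the Erbb3 level was not tested.

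The balance of the 2 receptors of heart muscle was compared within each library, which removes the scaling between libraries. The log2 ratio of Erbb2 to Erbb4 CPM was 4.02, 3.79, 3.87, 3.7 and 4.34 in the controls, against 3.25 and 3.23 in the libraries labelled mutant. Both libraries labelled mutant thus lay below every control. Per kilobase of exon, Erbb2 was 37.3 ± 6.99 times Erbb4 in the controls (SD, n = 5) and 22.8 and 22.3 times in the libraries labelled mutant. The difference in the log2 ratio was -0.70, with a two-sided p of 0.0476 by exact permutation over the 21 ways to assign 2 of 7 libraries. This is the smallest p that the design can give, and adjusted over the 4 pairs of genes compared it was 0.19, so the difference did not pass. With that smallest p, a pair could pass only if all 4 pairs reached it. Not passing therefore says little about this difference. It was -0.60 to -0.76 with any 1 library left out. The heart muscle marker sum was higher in both libraries labelled mutant than in any control, as given above, but its 20 genes were mixed. Of these, 14 had log2 fold changes above 0 and 6 below, beside 51.4% of all genes below 0. Myh7 was at 7720 to 10200 CPM in the controls and at 11700 and 14900 CPM in the libraries labelled mutant. Myl2 was at 7430 to 10800 CPM, against 6260 and 5730 CPM. The part of heart muscle content in this ratio was not tested.

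Notch1, on chromosome 2 at 26457903 to 26516663, encodes the main Notch receptor of the endocardium. It was at 44.1, 40.3, 37.6, 40.4 and 58.6 CPM in control replicates 1 to 5 and at 37 and 72.7 CPM in mutant replicates 1 and 2. The 2 libraries labelled mutant differed 1.97-fold from each other, mutant replicate 1 lying just below every control and mutant replicate 2 above every control. Between the groups the log2 fold change was 0.31 (SE 0.24, 95% interval -0.23 to 0.86), with an adjusted p of 0.544 (edgeR quasi-likelihood). Without mutant replicate 2 it was -0.25, so its sign rests on that library.

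Notch2, on chromosome 3 at 98013527 to 98150361, was at 39, 38, 32.8, 42.4 and 33.1 CPM in the controls and at 37.7 and 47.1 CPM in the libraries labelled mutant. Mutant replicate 2 was again above every control and mutant replicate 1 inside their range. For Notch2 the log2 fold change came to 0.19 (SE 0.13, 95% interval -0.08 to 0.47). The log2 ratio of Notch1 to Notch2 CPM was highest in control replicate 5, at 0.82, and mutant replicate 2, at 0.63, and between -0.07 and 0.2 in the 5 other libraries. Its group means of 0.24 and 0.30 differed by less than the spread between replicates (exact permutation p = 0.952).

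Dll4, on chromosome 2 at 119325784 to 119335962, encodes a Delta ligand made by endothelial cells. It was at 19.5, 17.8, 11.9, 17.9 and 21.9 CPM in the controls and at 14.3 and 20.9 CPM in the libraries labelled mutant. Both lay inside the control range. The log2 fold change was -0.02 (SE 0.21), and its 95% interval of -0.49 to 0.46 spans folds between 0.713 and 1.37.

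Jag1, on chromosome 2 at 137081456 to 137116644, encodes a Jagged ligand. It was at 18.9, 15.5, 15.5, 14.1 and 19.1 CPM in the controls and at 9.96 and 14.4 CPM in mutant replicates 1 and 2. Mutant replicate 1 was below every control and mutant replicate 2 was just above the lowest. The log2 fold change was -0.45 (SE 0.17, 95% interval -0.83 to -0.06), with an adjusted p of 0.218 (edgeR quasi-likelihood). Without mutant replicate 1 it was -0.20 and without mutant replicate 2 it was -0.73, with adjusted p of 0.567 and 0.269 by the same edgeR test. The log2 ratio of Jag1 to Dll4 CPM was -0.05, -0.19, 0.38, -0.34 and -0.2 in the controls, against -0.52 and -0.53 in the libraries labelled mutant, which were below every control. The exact permutation p was 0.0952, or 0.19 adjusted over the 4 pairs.

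Hey1, on chromosome 3 at 8663359 to 8667256, encodes a transcriptional repressor induced by Notch. It was at 16.9, 15.7, 10.4, 14.2 and 18.4 CPM in control replicates 1 to 5 and at 9.71 and 9.8 CPM in mutant replicates 1 and 2. The libraries labelled mutant were close to each other and to control replicate 3, and all 3 lay below the 4 other controls. The log2 fold change was -0.63 (SE 0.20, 95% interval -1.07 to -0.19), the lowest of the 10 genes, with an adjusted p of 0.141 (edgeR quasi-likelihood). Without control replicate 3 it was -0.73 and passed, with an adjusted p of 0.0463 (edgeR quasi-likelihood). That control is 1 of the 2 with little Xist, and it was the lowest control for 6 of the 10 genes: Erbb3, Notch1, Notch2, Dll4, Hey1 and Heyl. Control replicate 1, the other with little Xist, had Hey1 at 16.9 CPM. With Xist as a covariate the log2 fold change of Hey1 was -0.72, with an adjusted p of 0.215 (edgeR quasi-likelihood). The cause of the low values in control replicate 3 was not tested.

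Heyl, on chromosome 4 at 123233556 to 123249875, belongs to the same repressor family. It was at 20.2, 13.5, 10.3, 21.5 and 15.7 CPM in the controls and at 13.4 and 12.3 CPM in the libraries labelled mutant. The controls spanned a 2.09-fold range that took in both. For Heyl the log2 fold change came to -0.34 (SE 0.25, 95% interval -0.89 to 0.22). The log2 ratio of Hey1 to Heyl CPM had means of -0.08 in the controls and -0.39 in the libraries labelled mutant, a difference of -0.31 with an exact permutation p of 0.333.

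**Figure D3:**
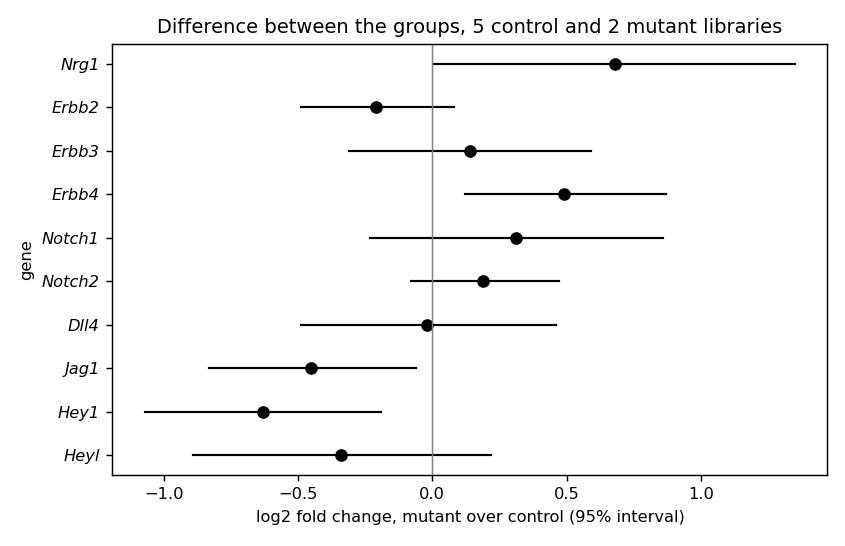
Log2 fold change of each of the 10 genes, mutant over control, as points with 95% intervals as lines (edgeR quasi-likelihood fit over all genes). The intervals of Hey1 and Jag1 lie below 0 and those of Erbb4 and Nrg1 above 0, before adjustment over the genes tested.

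The libraries also differed from each other across the 10 genes within each group. Mutant replicate 1 lay below every control for Erbb2, Notch1, Jag1 and Hey1. Mutant replicate 2 lay above every control for Erbb4, Notch1 and Notch2, and below every control for Hey1 alone. Control replicate 5 was the highest control for Erbb2, Notch1, Dll4, Jag1 and Hey1. Its summed endothelial markers were also the highest, at 2060 CPM, followed by mutant replicate 2 at 1890, and those of mutant replicate 1 were the lowest, at 1380. In whole tissue, fewer cells of a type and less RNA per cell cannot be told apart.

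The 28 endothelial markers were mixed, and none was called. Of these, 21 had log2 fold changes below 0 and 7 above, beside 51.4% of all genes below 0. Both libraries labelled mutant lay below every control for 3 and above for 0, beside 10.4% and 9.73% of all genes. The sum therefore does not describe each marker. Set against this sum, Notch1 was at 2.42 to 2.85 CPM per 100 CPM of markers in the controls and at 2.68 and 3.85 in mutant replicates 1 and 2. On that scale mutant replicate 1 was inside the control range and mutant replicate 2 above it. Jag1 was at 0.93 to 1.15 in the controls and at 0.722 and 0.765 in the libraries labelled mutant, both below every control. Hey1 was at 0.664 to 1.03 in the controls and at 0.704 and 0.52, so that its groups overlapped on this scale. Dll4, at 0.766 to 1.25 in the controls and 1.04 and 1.11, stayed inside the control range. The part of endothelial content in these differences was not tested.

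**Figure D4:**
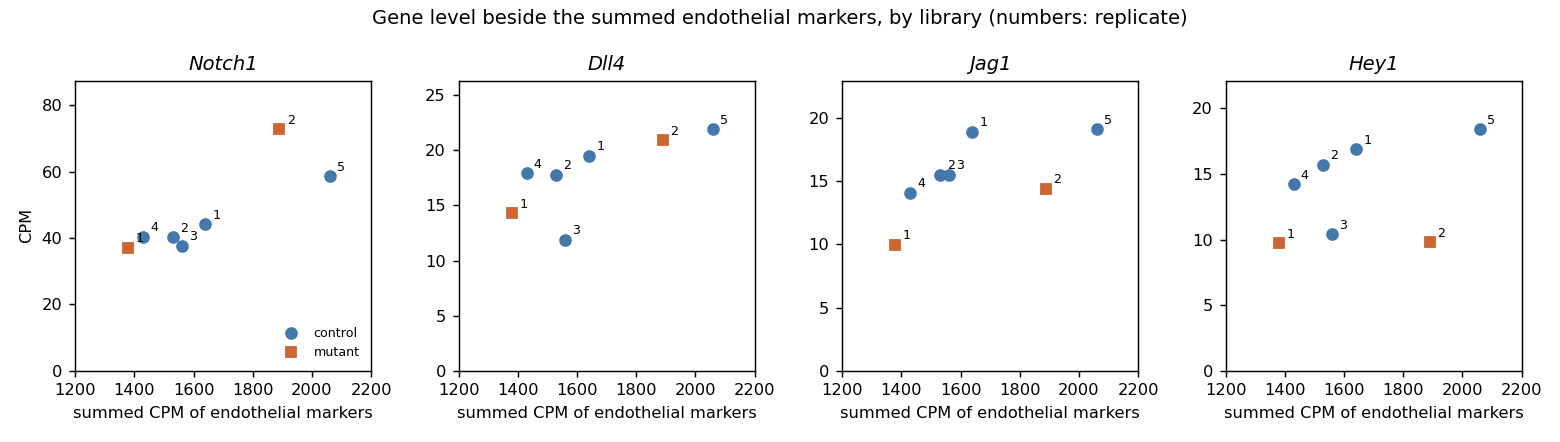
Level of Notch1, Dll4, Jag1 and Hey1 in CPM (vertical axes from 0) against the summed CPM of the endocardial and endothelial markers (horizontal axes, not starting at 0) in each library, with controls as circles and libraries labelled mutant as squares, numbered by replicate. Control replicate 5 and mutant replicate 2 have the highest marker sums, 2060 and 1890 CPM, and the highest Notch1.

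The other genes of the pathways were taken from lists of ErbB and Notch components and of genes tied to trabeculation. Outside the 10 genes, 110 listed genes were tested and 5 were called, 4 lower and 1 higher, beside 1.36% of all genes, 0.899% lower and 0.463% higher. Of these, Angpt1, Gja5 and Nppb were known to be called when the list was made and are no independent evidence. Without these 3, 2 of 107 were called. The rest of the lists was also chosen with earlier results of these data known, so this count is no independent evidence either. The 110 had a median log2 fold change of 0.00072, beside -0.008 over all genes tested. The authors' deposited table lists 12 of the 110, the 3 known genes included, and 4.55% of all genes tested.

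Among ErbB ligands and receptors, 11 of 15 were tested and none was called, with a median log2 fold change of 0.14. At an unadjusted p under 0.05, 3 of the 11 were higher and 0 lower, beside 8.09% and 9.52% of all genes. These 3 were Nrg1, Erbb4 and Hbegf, the last of which encodes an ErbB ligand with a heparin-binding part. Hbegf had a mean of 13.5 ± 2.19 CPM (SD, n = 5) over the controls, and the 2 libraries labelled mutant were at 15.7 and 23.3 CPM. Of the other neuregulin genes, Nrg4 was at 6.64 ± 0.415 and Nrg2 at 1.2 ± 0.529 CPM in the controls, while Nrg3, at 0 to 0.0949 CPM, was below the filter. Egfr, the founding ErbB receptor, was at 4.81 ± 1.4 CPM in the controls, against 5.1 and 3.5 CPM in the libraries labelled mutant.

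Of 21 genes of ErbB processing and signal relay, none was called, and the median was 0.07. The highest in CPM, not per length, were Itgb1, encoding the beta-1 integrin, at a log2 difference of -0.07 (SE 0.11), and Ptpn11, encoding the phosphatase SHP2, at 0.07 (SE 0.09). The genes Etv1, Etv4 and Etv5 encode transcription factors induced by receptor tyrosine kinase signals. Etv5 was at 15.4 to 21.5 CPM in the controls and at 26 and 30.2 CPM in the 2 libraries labelled mutant (adjusted p = 0.0794, edgeR quasi-likelihood). Etv4, in contrast, had a log2 fold change of -0.38 (SE 0.14), with an adjusted p of 0.206 by the same test.

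Among Notch ligands and receptors, Dner fell, and none of the other 9 tested of 11 listed was called. Dner encodes a Delta- and Notch-like protein known from neurons. It was at 1.04 to 2.54 CPM in the controls and at 0.396 and 0.438 CPM in the libraries labelled mutant, a log2 fold change of -2.06 (SE 0.41, and -1.88 to -2.19 with any 1 library left out) with an adjusted p of 0.0417 (edgeR quasi-likelihood). Its call was lost without control replicate 1, 2 or 3 (adjusted p of 0.0872, 0.092 and 0.0575) and without mutant replicate 1 or 2 (0.0923 and 0.272). The list median was -0.03. Dlk1, encoding a Delta-like protein without the usual Notch-binding part, had the highest CPM of the list, not per length, at 115 ± 14.9 CPM in the controls, against 142 and 79.7 CPM in the libraries labelled mutant. For Notch3 and Notch4 the values were -0.19 (SE 0.14) and 0.06 (SE 0.23) on the log2 scale.

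Of 33 genes of Notch processing and the nuclear complex none was called, with a median of 0.05. Adam10, the protease that makes the first activating cut, ranged from 128 to 162 CPM in the controls, with 125 and 192 CPM in mutant replicates 1 and 2. Aph1a, a gamma-secretase subunit, differed by 0.04 (SE 0.09) and Rbpj by 0.10 (SE 0.08) on the log2 scale. Neurl1b, a ubiquitin ligase acting on Notch ligands, was at 27 to 33.8 CPM in the controls and at 45 and 39.5 CPM in the 2 libraries labelled mutant (adjusted p = 0.0659, edgeR quasi-likelihood).

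Of 11 tested Notch target genes none was called, 9 had values below 0, beside 51.4% of all genes, and the median log2 fold change was -0.12. At an unadjusted p under 0.05, 4 were lower, Hey1, Snai1, Snai2 and Myc, and 0 were higher, beside 9.52% and 8.09% of all genes. Hey2, the Hey gene with the highest CPM and known from compact heart muscle, was at 122 to 152 CPM in the controls and at 119 and 125 CPM in the libraries labelled mutant. Hes1 and Nrarp, further Notch targets, had the same log2 fold change of -0.11, with SEs of 0.15 and 0.20. Snai1, which encodes a repressor of epithelial genes active in cushion formation, was at 6.93 to 11.4 CPM in the controls and at 5.45 and 3.46 CPM in the 2 libraries labelled mutant (adjusted p = 0.0566, edgeR quasi-likelihood). The markers of cushion mesenchyme, lower in both libraries labelled mutant as given above, moved in the same direction, and their part in the Snai1 level was not tested. Ccnd1, the cyclin D1 gene, had a log2 fold change of -0.12 (SE 0.09).

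Of 35 trabeculation partners, 3 fell and 1 rose, beside 0.899% and 0.463% of all genes, with a median of -0.01. The 3 that fell are the 3 known beforehand. Angpt1, which encodes a ligand of the endothelial receptor Tie2, Nppb, the natriuretic peptide gene, and Gja5, the connexin 40 gene, were lower by log2 fold changes of -1.30 (SE 0.12), -1.22 (SE 0.11) and -1.77 (SE 0.34). Angpt1 and Nppb were called in all 17 alternative fits. With Xist as a covariate Gja5 was not called, nor were Dner, given above, and Plxna1, given below. Gja5, at an adjusted p of 0.0471 by the edgeR test, was not called when control replicate 1 or 2 was left out (0.0641 and 0.0801), nor without mutant replicate 1 or 2 (0.144 and 0.253), while its log2 fold change ran from -1.48 to -2.13 with any 1 library left out. Angpt1 is also on a list of 12 atrial markers, with a median of -1.21. Of these, 7 were called lower and 0 higher, beside 0.899% and 0.463% of all genes. That list summed to 3240 to 5350 CPM in the controls, against 3500 and 3250 CPM in the libraries labelled mutant. Most of this sum was Myl4, at 2310 to 3530 CPM in the controls and at 2890 and 2680 CPM in the libraries labelled mutant. The sum therefore says little about the other atrial markers. Of the 12, 8 had both libraries labelled mutant below every control, beside 10.4% of all genes. This list holds Angpt1 and was chosen with earlier results of these data known, so its counts are no independent evidence. Of 10 macrophage markers 3 were called lower, beside 0.899% of all genes, and all 10 had values below 0, beside 51.4%. Their sum was 185 to 251 CPM in the controls, against 164 and 114 CPM in the libraries labelled mutant. None of the markers on either list was at 0 in every library, and the part of atrial tissue or macrophages in these levels was not tested. Plxna1, a semaphorin receptor gene, was at 53.5 to 61.5 CPM in the controls and at 70.3 and 78.8 CPM in the libraries labelled mutant, a log2 fold change of 0.42 (SE 0.09) with an adjusted p of 0.0471 (edgeR quasi-likelihood). It lost its call with any 1 library left out, at adjusted p of 0.0509 to 0.355 (same edgeR test) and log2 fold changes of 0.34 to 0.50. Bmp10, a growth factor gene of trabecular muscle, was at 12.7 to 31.3 CPM in the controls and at 12.6 and 28.9 CPM in the libraries labelled mutant. Efnb2, the ephrin B2 gene of the endocardium, had a log2 fold change of 0.05 (SE 0.17). Hbegf, Etv4, Etv5, Neurl1b, Snai1 and the genes of these lists that were neither called nor highest in CPM were named after their values were seen.

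**Figure D5:**
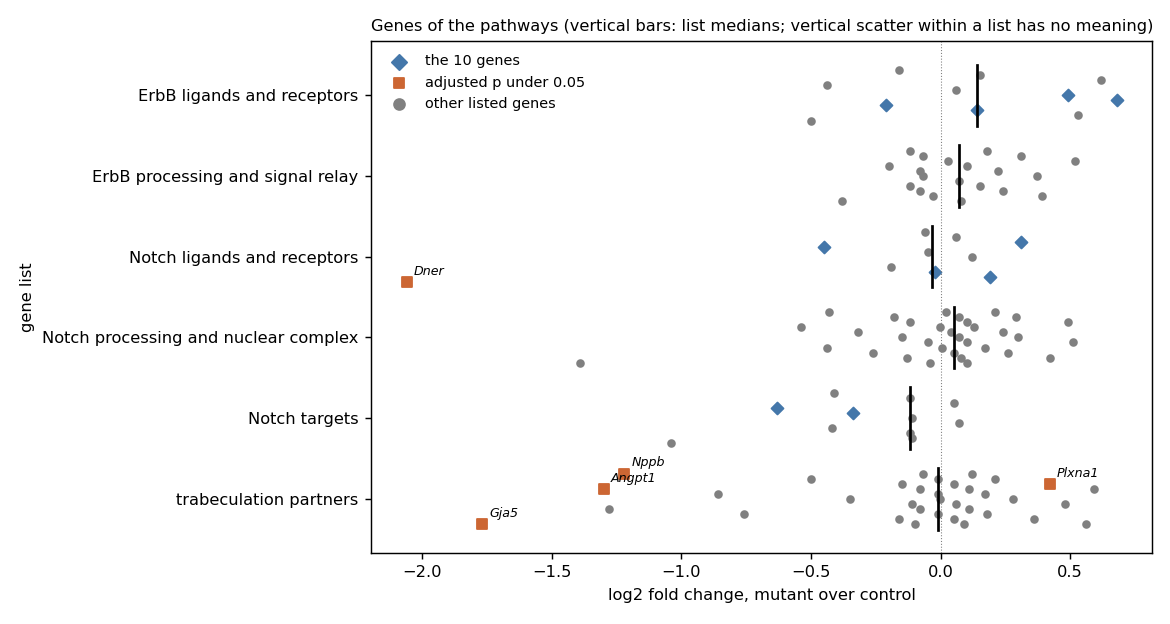
Log2 fold change, mutant over control, of every tested gene in 6 lists, with the 10 genes as diamonds, genes with an adjusted p under 0.05 as squares with names, other genes as circles and list medians as vertical bars. The medians lie between -0.12 and 0.14, and the 5 named squares are Dner, Nppb, Angpt1, Gja5 and Plxna1.

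For each of the 10 genes, the expressed gene with the most alike profile was found over the 7 libraries, as the smallest mean absolute difference in centred log2 CPM. The search covered about 11200 genes of at least 5 CPM. Notch2 had the closest partner, Vps13b, at 0.0254 log2 units, and Nrg1 the most distant, Cd36, at 0.126. Between these, Erbb2 was closest to Dlgap4 at 0.0408, Notch1 to Itpr2 at 0.0586, Jag1 to Mmp14 at 0.0606 and Hey1 to Ift27 at 0.0901. Cd36 and Ift27 had log2 fold changes of 0.65 and -0.78 with adjusted p of 0.0543 and 0.0638 (edgeR quasi-likelihood), and none of the 10 partners was called. The profiles include the difference between the groups, so the partners were picked to have fold changes near those of the 10. Their fold changes and lack of calls are therefore no separate result. How close a match chance alone would give was not tested.

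The 250 bases before the annotated start were searched in the RefSeq promoter table of GRCm38.p6, which matched 6 of the 10 genes: Erbb2, Erbb4, Notch1, Notch2, Dll4 and Jag1. The letters searched on both strands were TGGGAA, the core bound by RBPJ, AGGTGT, a T-box core, and CACGTG, an E-box. None of the 6 windows held any of the 3, beside 21.6%, 11.8% and 6.02% of all 32851 promoter windows of that length. This says only that these letters are not in these windows.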

How the data were processed

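The count table deposited by the authors holds raw read counts per gene symbol and library. Per the labels' protocols the reads were single-end, from a TruSeq v2 kit, which does not mark strand. Per the submitters' processing notes the build was mm10 and the tools included TopHat2 2.1.1, featureCounts and edgeR 3.16.5. The gene annotation is not given in the labels or notes. Exons of Nrg1, Erbb2, Notch1, Notch2 and Dll4 overlap other annotated genes, whose reads cannot be told apart. The second table deposited by the authors gives their log2 fold changes, p-values and false discovery rates, all at most 0.05, without naming a test; it was used only to see which genes are listed.

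Counts were filtered with filterByExpr (minimum count 10, minimum total 15), scaled by TMM and tested with edgeR 4.0.16 (R 4.3.3; glmQLFit and glmQLFTest, robust) with genotype as the only term. P-values were adjusted over all genes by Benjamini-Hochberg. The SE is the log2 fold change over the square root of F. Log2 ratios used CPM with a prior count of 2. Exon lengths and positions came from GENCODE vM21 (GRCm38). With 1 mutant library left out, the other was assumed to vary like the controls. The test was checked on simulated data. Alternatives used DESeq2 1.42.0, limma 3.58.1 and the settings of the closing section; the likelihood ratio test and leaving out 2 libraries together were added after seeing the data.

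The 10 genes and the lists were chosen with earlier results of these data known. Named genes were the 10, called genes of each list, the 2 highest in CPM where fewer than 2 were called, and the nearest profiles. Further genes were named after their values were seen, as given above.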

Additional observations from a re-analysis of the deposited data

Results flagged for a closer look

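Nrg1 in control replicate 4, at 2.43 CPM, lay far above the 4 other controls, with a gap of 0.815 of the group's range, where 0.71 is the limit for 5 samples. It was the 1 such value among 14 quantities examined over the controls, of which chance alone gives about 1 in 20.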

How the results depend on the processing

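In 15 of 17 alternative fits 0 of the 10 genes was called. Hey1 was the 1 gene called in the 2 others, without control replicate 3 and with the replicate block, at -0.74 and an adjusted p of 0.0111 (edgeR quasi-likelihood). In the block fit, control replicates 3, 4 and 5 had no mutant library of the same number. The difference there rested on replicates 1 and 2 of each group alone. Both fits that called Hey1 thus kept control replicate 3 out of the estimate, but the block fit also kept out control replicates 4 and 5. The block fit called 811 of all genes, beside 200 without the block, so its call of Hey1 came among many added calls. Over all its alternatives the adjusted p of Hey1 ran from 0.0111 to 0.541. Leaving out 1 library at a time gave 0 to 1 of the 10 genes called, 12 to 275 of all genes, the lowest counts being 12 (mutant replicate 2 left out), 72 (control replicate 2) and 78 (control replicate 1), and 2 to 5 of the 110 further pathway genes, beside 200 and 5. The counts of all genes and of further pathway genes were 786 and 13 by DESeq2, 119 and 3 by limma-voom, 773 and 13 by the likelihood ratio test, 811 and 12 with the replicate block, 60 and 2 with Xist as a covariate, 586 and 9 at an adjusted p of 0.10, and 52 and 2 without control replicate 5 and mutant replicate 2 together. The cause was not tested.

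The labels do not say whether the replicate numbers pair libraries across the groups. Control replicate 1 correlated with mutant replicate 1 at 0.0775, and control replicate 2 with mutant replicate 2 at 0.0117, in deviations from the group means across 14691 genes. With 2 mutant libraries the deviations mirror each other, and control replicate 1 with mutant replicate 2 gave -0.0775. These values therefore cannot decide whether the numbers mark pairs.

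Signs turned for the following differences, none of them called. With 1 library left out, Dll4 ran from -0.31 to 0.23, Notch1 from -0.25 to 0.72 and the Notch1 to Notch2 log2 ratio difference from -0.27 to 0.38. Without control replicate 5 and mutant replicate 2 together, Notch1 was at -0.13 and Notch2 at -0.0048, and Erbb3 was at -0.0025 with Xist as a covariate. The log2 fold changes of Nrg1, Erbb2, Erbb4, Jag1, Hey1 and Heyl kept their sign in each of 16 alternative fits. Nrg1, with 24 to 54 counts a library, is the gene most limited by depth.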
